A study of Mus musculus with 8 samples.

Results

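The genes described here encode proteins of synaptic vesicles and of the active zone, the patch of presynaptic membrane where vesicles fuse. They were chosen by symbol: 39 symbols, all of them found among the 24060 gene rows of each file, and all 39 were also among the 15605 genes tested. At a chemical synapse, vesicle proteins load transmitter and tether the vesicle, scaffold and priming proteins hold it at the active zone, SNARE proteins and their helpers fuse it, and endocytic proteins take the membrane back. Many of these proteins come from small families in which one gene is best known from neurons and a relative is expressed in many tissues. Active zones of this kind are known from neurons, and in cortex most of these genes are known as neuronal.

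The libraries came from the cortex of 4 young adult mice of both sexes, aged about 80 postnatal days, all labelled Aldh1l1-creERT2 hemi; Ribotag het. Aldh1l1-creERT2 is an inducible Cre driven by regulatory sequence of Aldh1l1, an astrocyte folate enzyme gene, and RiboTag is an allele of the ribosomal protein gene Rpl22 that gains a hemagglutinin (HA) tag in cells where Cre has acted. Each animal gave an HA IP library, from RNA on precipitated tagged ribosomes, and an input library, from the cleared lysate of the same cortex, which made 4 HA IP and 4 input libraries, named by the animal numbers 579, 580, 581 and 595. Tagged ribosomes can come only from cells in which that promoter was active and Cre recombined the allele, and which animal was male or female is not given in the labels. No wild-type or Cre-negative precipitate is among the samples, so RNA that sticks to the beads was not measured. The comparison of HA IP with input asks which transcripts the tagged ribosomes carried.

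The libraries held 33834388 to 53625125 fragments. Aldh1l1 had 406, 433, 415 and 370.3 FPKM (fragments scaled to gene length and to the size of the library) in HA IP, against 20.7, 21.9, 23.0 and 21.7 FPKM in input, for animals 579, 580, 581 and 595. Rpl22, the tagged gene, had 9.05, 10.6, 10.6 and 7.32 FPKM in HA IP, against 10.8, 11.4, 9.40 and 9.50 FPKM in input, and a read count cannot tell its tagged from its untagged form. All 12 astrocyte markers examined were higher in HA IP (median log2 fold change 4.13). Of 12 pan-neuronal markers 11 were lower and 1, the adhesion molecule gene Ncam1, was higher; they summed to 196 to 214 FPKM per HA IP library, against 2275 to 2465 FPKM per input library, and none was at 0 in any HA IP library. All 7 excitatory and all 8 inhibitory neuron markers, all 7 oligodendrocyte, 4 oligodendrocyte precursor, 7 microglia and 5 endothelial markers were lower, as were 3 of 4 mural markers, and none of these was at 0 in an HA IP library.

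Vesicle and active zone transcripts were low in HA IP. Of the 39 genes, 35 fell and 4 rose (limma, adjusted p under 0.05), whereas 41.2% of all genes tested were lower and 42.1% were higher. The median log2 fold change of the set was -2.88, between -3.10 and -2.81 in the 4 animals, beside 0.01 over all genes tested. In the deposited FPKM the 4 HA IP and 4 input values did not overlap for 37 of the 39 genes, and for 80.9% of all genes tested. Together the set took 0.193% to 0.209% of the fragments of an HA IP library and 1.60% to 1.75% of those of an input library. Both libraries of an animal came from the same cortex, so the comparison sets RNA on tagged ribosomes against RNA of the lysate. Within either library, the number of cells of a type and the RNA per cell cannot be told apart. How far the remaining signal in HA IP came from neuronal RNA carried along, beside the pan-neuronal marker levels above, was not tested.

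The number of genes that rose depends on the scale. Fold changes were computed after trimmed mean of M-values (TMM) scaling, whose factors raised HA IP relative to input by 0.84 on the log2 scale, and by less for low genes once the pseudocount was added. On the deposited scale 1 of the 39 genes, Dnm2, was higher and 35 were lower, and 3, Unc13c, Sypl and Erc1, did not pass. Of all genes tested, 23.3% were higher and 61.6% lower on that scale. Percentages of input below are FPKM in HA IP over FPKM in input of the same animal on the deposited scale, given as mean ± SD over the 4 animals. Gene length cancels in them.

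**Figure D1:**
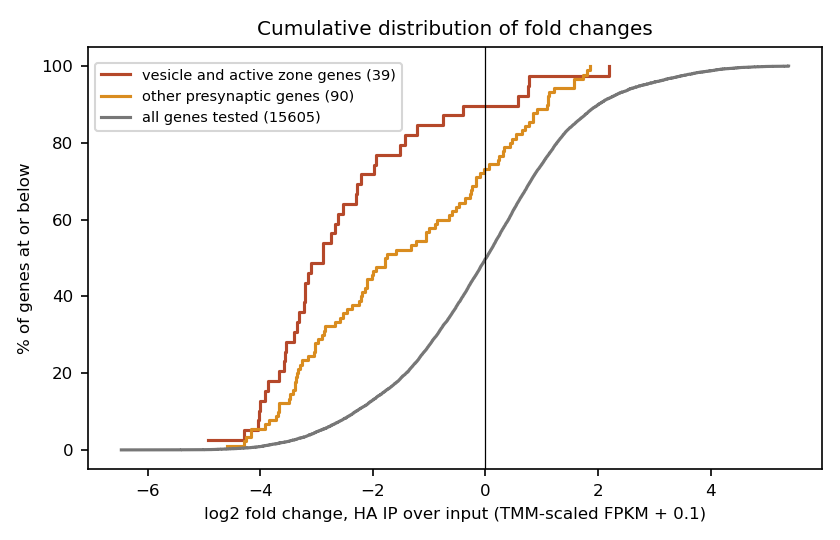
Cumulative share of genes (y axis, %) by log2 fold change of HA IP over input (x axis) for the 39 vesicle and active zone genes, 90 other presynaptic genes and all 15605 genes tested. The curve of the 39 genes lies left of the others over most of its length, with a median of -2.88 against -1.77 for the other presynaptic genes and 0.01 for all genes.

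The share of input that was kept differed widely among the genes. It ran from 1.64 ± 0.497% for Synpr to 264 ± 18.7% for Dnm2, with a median of 7.19%, beside a median of 57.6% over the 15586 tested genes with a value above 0 in every input. The pan-neuronal markers had a median of 7.0%, the excitatory neuron markers 4.95%, the inhibitory 3.53%, and the oligodendrocyte and microglia markers 7.03% and 7.26%. Of the 39 genes, 1 was above 100%, 4, that one included, were above 50%, 4 lay between 20% and 50%, 6 between 10% and 20%, and 25 were at 10% or less; 13.3% of all those genes were under 10% and 30.5% over 100%. The order was alike in every animal, with Spearman correlations of 0.95 to 0.99 between animals over the 39 genes, a description in which the 2 libraries of an animal share their source. Dnm2 was first and Synpr last in all 4 animals. Between neighbours in the order, the ranges over animals overlapped in all but 5 of 38 cases: Dnm2 lay clear of Unc13c, Erc1 of Unc13b, Cplx2 of Rims2, Doc2a of Ppfia3, and Sv2b of Slc17a6. The ranges of Unc13c, Sypl and Erc1 overlapped each other, and from Ppfia3 down no neighbours but Sv2b and Slc17a6 stood apart.

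**Figure D2:**
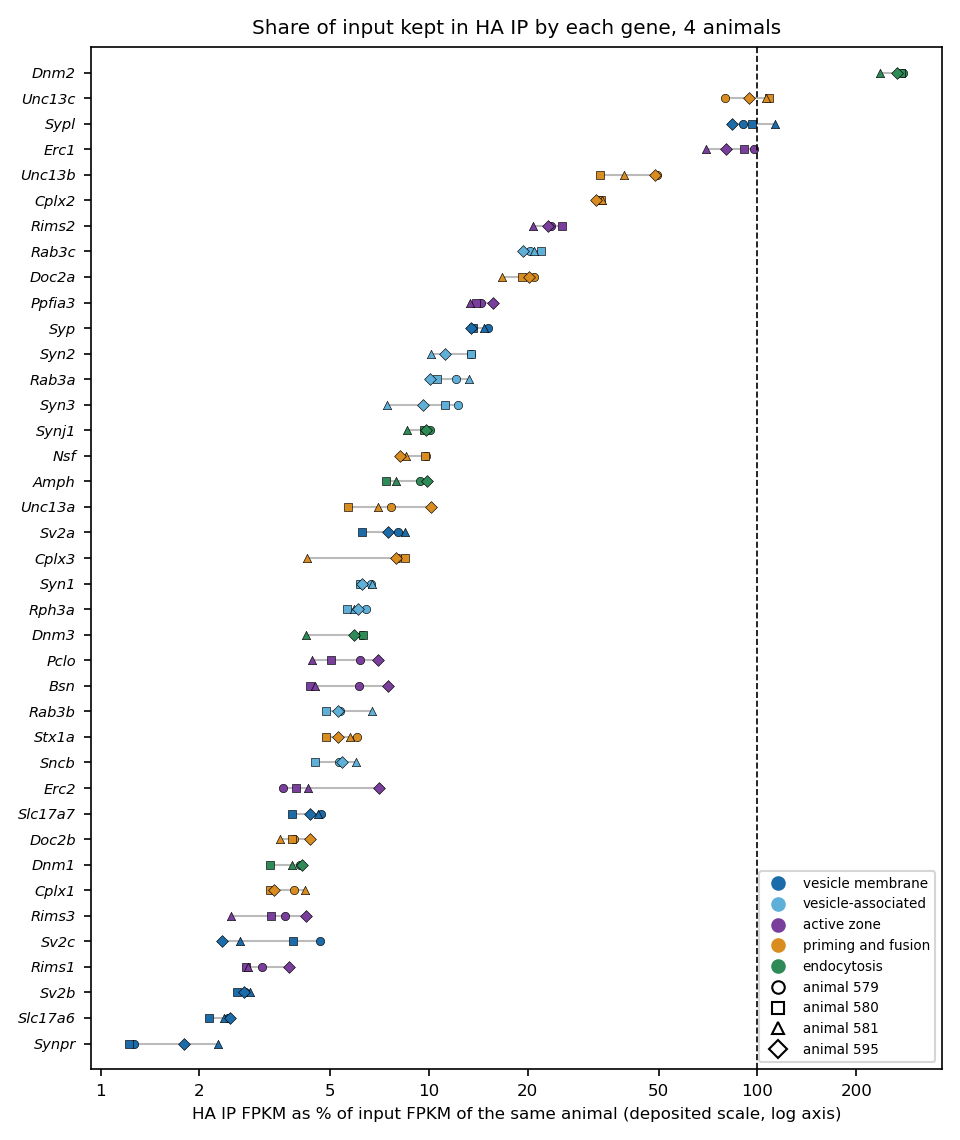
FPKM in HA IP as a percent of FPKM in input of the same animal (x axis, log scale, deposited values) for each of the 39 genes (y axis), 1 point per animal and coloured by role; the dashed line marks 100%. Dnm2 lies right of the line in all 4 animals, Unc13c, Sypl and Erc1 lie around or just below it, and 25 genes average 10% or less.

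Dnm2, on chromosome 9, was the gene that on average kept more than its input on the deposited scale. Dynamins are the GTPases that pinch off endocytic vesicles; dynamin 1 and dynamin 3 are the forms known from neurons, and dynamin 2 is made in most tissues. Dnm2 had 11.5, 11.1, 9.13 and 10.1 FPKM in HA IP, against 4.15, 4.03, 3.86 and 3.78 FPKM in input of animals 579, 580, 581 and 595. Every HA IP value lay above every input value, and the log2 fold change was 2.20 (SE 0.10, adjusted p = 1.59e-08), or 1.37 on the deposited scale. Dnm1 had 13.6, 10.8, 14.2 and 14.2 FPKM in HA IP, against 336, 329, 371 and 346 FPKM in input, a share of 3.81 ± 0.378%, and its log2 fold change was -3.87 (SE 0.09). Dnm3, at 0.640 to 0.926 FPKM in HA IP, against 13.0 to 15.6 FPKM in input, kept 5.67 ± 0.986% and fell by 3.20 on the log2 scale (SE 0.13). The span of Dnm2 overlaps that of Tmed1 in RefSeq, which averaged 18.4 FPKM in HA IP, against 6.06 FPKM in input, and whether the counting used strand is not given in the sources used here, so how far the overlap feeds the Dnm2 value was not tested.

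The other endocytic genes fell. Synj1 encodes synaptojanin 1, the lipid phosphatase that helps uncoat vesicles, and Amph encodes amphiphysin, which brings dynamin to the neck of a coated pit. Synj1 had 3.30, 2.92, 3.27 and 3.34 FPKM in HA IP, against 32.7, 30.2, 38.1 and 34.1 FPKM in input, which gave a log2 fold change of -2.52 (SE 0.09). For Amph the values were 2.92, 2.12, 3.86 and 3.15 FPKM in HA IP, against 31.2, 28.6, 48.8 and 31.9 FPKM in input, and the log2 fold change was -2.67 (SE 0.19). Neither gene's groups overlapped, and the shares kept were 9.54 ± 0.661% and 8.64 ± 1.17%.

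**Figure D3:**
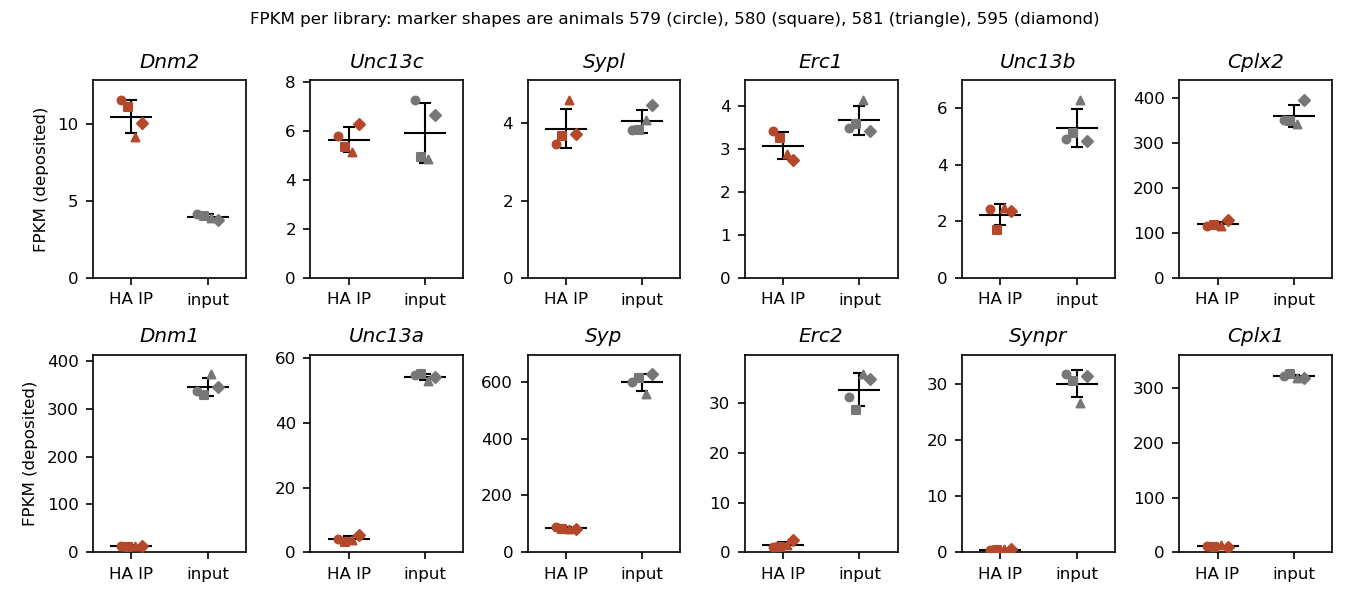
Deposited FPKM (y axis, from 0) of 12 genes in each HA IP and input library, 1 point per animal with mean and SD as lines (n = 4 per group). The upper row holds the 6 genes that kept the largest share of input, where Dnm2 is higher in HA IP and Unc13c and Sypl overlap between the groups; in the lower row every HA IP value lies far below every input value.

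Unc13c and Unc13b, both priming genes, were among the 5 genes with the largest shares of input. Munc13 proteins, encoded by the Unc13 genes, open syntaxin so that a vesicle can be primed for fusion; Unc13a encodes the main form of cortical synapses and Unc13c one best known from cerebellar granule cells. Unc13c had 5.79, 5.36, 5.16 and 6.31 FPKM in HA IP, against 7.28, 4.93, 4.84 and 6.68 FPKM in input. Its groups overlapped, and it kept 97.3 ± 13.4% of input. After TMM scaling it rose, with a log2 fold change of 0.78 (SE 0.14, adjusted p = 5.86e-04), but on the deposited scale it had -0.05 and did not pass. Unc13b, a more widely expressed form, had 2.44, 1.70, 2.47 and 2.37 FPKM in HA IP, against 4.91, 5.12, 6.31 and 4.86 FPKM in input, with no overlap. Its span overlaps that of Fam214b in RefSeq, which had a log2 fold change of 1.11. Unc13b kept 42.7 ± 7.89% of input. On the deposited scale it fell by 1.21 on the log2 scale (SE 0.14, limma adjusted p = 2.12e-05). After TMM scaling it fell by 0.39 (SE 0.14, adjusted p = 0.0208). The call after TMM scaling was lost without animal 580 (adjusted p = 0.0783) and without animal 581 (0.0579). It was also lost without the HA IP library of 580 (0.0663) and without the input library of 581 (0.0584). Unc13a had 4.19, 3.11, 3.71 and 5.49 FPKM in HA IP, against 54.7, 54.9, 52.9 and 54.2 FPKM in input. Its log2 fold change after TMM scaling was -2.88 (SE 0.14).

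Complexins, small proteins that clamp and promote SNARE-driven fusion, were kept unequally. Cplx2 had 115, 117, 115 and 128 FPKM in HA IP, against 352, 349, 344 and 397 FPKM in input, and kept 33.1 ± 0.583%. Its share was alike in all animals, from 32.4% to 33.6%, and its log2 fold change was -0.75 (SE 0.09). Cplx1 lay at 10.6 to 13.3 FPKM in HA IP, against 317 to 324 FPKM in input. It kept 3.68 ± 0.432% and fell by 3.92 on the log2 scale (SE 0.08), and Cplx3 kept 7.19 ± 1.97%. Stx1a, a plasma membrane SNARE gene, had 8.95, 7.57, 7.18 and 7.70 FPKM in HA IP, against 149, 156, 125 and 146 FPKM in input, which gave a log2 fold change of -3.34 (SE 0.10). For Nsf, the ATPase that takes spent SNARE complexes apart, the values were 21.3, 19.7, 19.7 and 17.5 FPKM in HA IP, against 218, 203, 231 and 215 FPKM in input, which gave a log2 fold change of -2.62 (SE 0.09). Both were lower in every HA IP library than in every input library. The C2-domain calcium sensor gene Doc2a had 3.74, 3.61, 4.79 and 3.72 FPKM in HA IP, against 17.9, 18.9, 28.7 and 18.4 FPKM in input, and kept 19.2 ± 1.84%, while its relative Doc2b kept 3.89 ± 0.341%. The span of Doc2a overlaps that of Ino80e, which had a log2 fold change of 0.91, and the part of such neighbours in these values was not tested. The input of animal 581 was the highest for Doc2a, and so was its HA IP library.

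Active zone scaffold genes fell, apart from Erc1. Bassoon and piccolo, encoded by Bsn and Pclo, are the giant scaffolds of the site, RIM proteins link vesicles to calcium channels, ERC proteins bind RIM, and liprin-alpha proteins such as that of Ppfia3 organise the site. Erc1 had 3.43, 3.27, 2.89 and 2.75 FPKM in HA IP, against 3.50, 3.59, 4.15 and 3.43 FPKM in input, and kept 84.6 ± 12.4%. The highest HA IP value and the lowest input value were nearly level, so the groups barely stood apart. Its log2 fold change was 0.57 (SE 0.12, adjusted p = 0.00114) after TMM scaling and -0.25 on the deposited scale, where it did not pass (adjusted p = 0.0573). Erc2, the brain form, lay at 1.12 to 2.46 FPKM in HA IP, against 28.7 to 35.8 FPKM in input, kept 4.71 ± 1.58% and fell by 3.55 on the log2 scale (SE 0.21).

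Bsn had 2.32, 1.90, 2.23 and 3.05 FPKM in HA IP, against 37.8, 44.0, 49.5 and 40.7 FPKM in input, and fell by 3.31 on the log2 scale (SE 0.13), with Pclo close to it: 0.457 to 0.727 FPKM against 8.85 to 10.4 FPKM, a share of 5.65 ± 1.15%. Rims1 had 0.652, 0.531, 0.511 and 0.782 FPKM in HA IP, against 21.0, 19.2, 18.2 and 20.9 FPKM in input, which gave a log2 fold change of -4.02 (SE 0.13). Rims2 had 1.34, 1.38, 1.07 and 1.47 FPKM in HA IP, against 5.69, 5.45, 5.16 and 6.35 FPKM in input, which gave a log2 fold change of -1.22 (SE 0.13). The shares of Rims1 and Rims2 were thus far apart, 3.11 ± 0.452% and 23.2 ± 1.93%, and that of Rims3 was 3.41 ± 0.715%. Ppfia3 had 7.10, 6.74, 6.77 and 7.55 FPKM in HA IP, against 49.2, 48.5, 50.9 and 48.2 FPKM in input, which gave a log2 fold change of -1.95 (SE 0.06).

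Of 8 genes of vesicle membrane proteins, 7 fell and 1 rose. Synaptophysin (Syp) is an abundant membrane protein of synaptic vesicles, and synaptoporin (Synpr) is a relative found at a subset of synapses. Sypl encodes a synaptophysin-like protein of vesicles in many tissues. Syp had 90.1, 83.4, 82.0 and 83.8 FPKM in HA IP, against 597, 612, 557 and 626 FPKM in input, which gave a log2 fold change of -1.97 (SE 0.09). Sypl had 3.45, 3.67, 4.61 and 3.72 FPKM in HA IP, against 3.82, 3.82, 4.08 and 4.46 FPKM in input, and its groups overlapped. It kept 95.7 ± 12.6% and rose after TMM scaling, with a log2 fold change of 0.75 (SE 0.11, adjusted p = 1.06e-04), but had -0.07 on the deposited scale and did not pass there. Synpr had 0.400, 0.373, 0.604 and 0.563 FPKM in HA IP, against 31.8, 30.5, 26.6 and 31.4 FPKM in input. Its log2 fold change, -4.93 (SE 0.14, adjusted p = 8.11e-10), was the most negative of the 39.

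SV2 proteins are transporter-like glycoproteins of the vesicle, and Slc17a7 and Slc17a6 encode the vesicular glutamate transporters VGLUT1 and VGLUT2, of which the first is typical of cortical and the second of thalamic neurons. Sv2a had 9.07, 6.87, 10.5 and 8.85 FPKM in HA IP, against 112, 110.2, 125 and 118 FPKM in input, which gave a log2 fold change of -2.88 (SE 0.11). Sv2b had 1.58, 1.38, 2.21 and 1.69 FPKM in HA IP, against 57.3, 53.1, 77.4 and 62.0 FPKM in input, which gave a log2 fold change of -4.29 (SE 0.15). Sv2b kept 2.74 ± 0.104%, less than the 7.56 ± 0.961% of Sv2a. Sv2c had 0.207, 0.165, 0.236 and 0.0976 FPKM in HA IP, against 4.43, 4.28, 8.92 and 4.17 FPKM in input; the input of animal 581 held about as much as those of any other pair of animals together, and the 4 HA IP libraries held 14 to 45 fragments of it. Slc17a7 had 26.8, 22.0, 32.2 and 23.4 FPKM in HA IP, against 570.2, 574, 702 and 539 FPKM in input, which gave a log2 fold change of -3.68 (SE 0.13). Slc17a6 had 0.178, 0.131, 0.150 and 0.199 FPKM in HA IP, against 7.30, 6.11, 6.33 and 8.06 FPKM in input, which gave a log2 fold change of -4.05 (SE 0.15). Both transporter genes were among the 11 genes that kept 5% or less.

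All 8 genes of proteins that sit on the outside of vesicles fell. Synapsins tether vesicles to the reserve pool, Rab3 proteins are the GTPases of secretory vesicles, rabphilin (Rph3a) binds them, and beta-synuclein (Sncb) is a presynaptic relative of alpha-synuclein. Syn1 had 7.51, 6.87, 8.26 and 7.01 FPKM in HA IP, against 112, 111, 124 and 112 FPKM in input, which gave a log2 fold change of -3.10 (SE 0.07). Syn2 and Syn3 kept 12 ± 1.66% and 10.1 ± 2.07%, more than the 6.45 ± 0.269% of Syn1. The spans of Syn2 and Syn3 enclose Timp4 and Timp3 in RefSeq. Timp4 averaged 145 FPKM in HA IP, against 19.5 FPKM in input, and Timp3 averaged 136 FPKM in HA IP, against 27.5 FPKM in input. Syn3 also overlaps Fbxo7, at 17.8 FPKM in HA IP, against 10.2 FPKM in input. Syn1 overlaps Araf, at 16.9 FPKM in HA IP, against 43.2 FPKM in input, and Timp1, at 0.841 against 0.732 FPKM. The part of these neighbours in the synapsin values was not tested. Rab3c had 14.2, 12.9, 13.5 and 15.3 FPKM in HA IP, against 70.2, 59.0, 64.6 and 79.5 FPKM in input, and kept 20.6 ± 1.10%. Rab3c thus stood above Rab3a and Rab3b. It stood below Rab3d, one of the other presynaptic genes, which kept 35.5 ± 7.62%. Rab3a lay at 17.0 to 22.3 FPKM in HA IP, against 169 to 182 FPKM in input, and kept 11.5 ± 1.44%. Sncb lay at 18.8 to 22.6 FPKM in HA IP, against 369.8 to 424 FPKM in input. The shares of Rab3b, Rph3a and Sncb were 5.55 ± 0.795%, 6.02 ± 0.329% and 5.31 ± 0.612%. Among Rab3a, Rab3b, Rph3a and Sncb, the log2 fold changes ran from -3.40 for Sncb to -2.28 for Rab3a.

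Related genes were then compared within the same libraries, where library scaling and gene length cancel, up to the pseudocount. For each of 20 pairs the log2 ratio of the first gene to the second was set against itself, HA IP against input, with an exact two-sided permutation test over the 8 libraries (70 arrangements, smallest possible p = 0.0286) and Benjamini-Hochberg adjustment over the pairs. The difference passed in 17 of 20 pairs, each at the smallest possible p (adjusted p of 0.0336), and had the same sign in all 4 animals in 18. How often pairs of other genes would pass was not tested. Among all single genes tested, 80.9% had no overlap between the groups on the deposited scale. Dnm2 exceeded Dnm1 by 6.07 ± 0.19 (log2, mean ± SD over 4 animals, range 5.91 to 6.34). The other large differences were Erc1 over Erc2 by 4.12 ± 0.53, Unc13c over Unc13a by 3.66 ± 0.47, Cplx2 over Cplx1 by 3.17 ± 0.16, Rims2 over Rims1 by 2.79 ± 0.21, Sypl over Syp by 2.72 ± 0.16 and Unc13b over Unc13a by 2.49 ± 0.18. In these 7 pairs the first gene kept the larger share in every animal, whichever way the libraries are scaled.

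Smaller differences also passed. Cplx3 over Cplx1 (1.18 ± 0.48), Syn2 over Syn1 (0.89 ± 0.23), Rab3c over Rab3a (0.85 ± 0.18), Syn3 over Syn1 (0.80 ± 0.32) and Dnm3 over Dnm1 (0.67 ± 0.31) were positive, of which those of Cplx3 and Dnm3 lost the call when any 1 input library was left out (exact permutation test, adjusted p = 0.0672). In the other direction lay Synpr against Syp (-2.96 ± 0.39), Doc2b against Doc2a (-2.04 ± 0.13), Sv2b against Sv2a (-1.41 ± 0.14), Rab3b against Rab3a (-0.94 ± 0.12) and Sv2c against Sv2a (-0.71 ± 0.48). The sign for Sv2c turned with a pseudocount of 1 FPKM, where it was 0.81. Its call was lost without the HA IP library of 595 and without the input of 581 (-0.55 and -0.47, exact adjusted p = 0.0672 in both), and on the deposited scale (0.0635). Pclo against Bsn (0.15 ± 0.14), Rims3 against Rims1 (0.01 ± 0.20) and Slc17a6 against Slc17a7 (-0.37 ± 0.10) did not pass in this test, which leaves out the pairing by animal, and over animals these differences spanned -0.01 to 0.34, -0.29 to 0.13 and -0.48 to -0.24. The difference of Slc17a6 and Slc17a7 was thus negative in all 4 animals, with shares of input of 2.35 ± 0.148% and 4.36 ± 0.381%. It depended on the pseudocount. With 0.01 FPKM it was -0.83 and passed (exact permutation test, adjusted p = 0.0336). With 1 FPKM it was 1.30, of the other sign, and passed too (adjusted p = 0.0301). Pclo against Bsn (0.72) and Rims3 against Rims1 (-0.53) also passed with 1 FPKM.

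**Figure D4:**
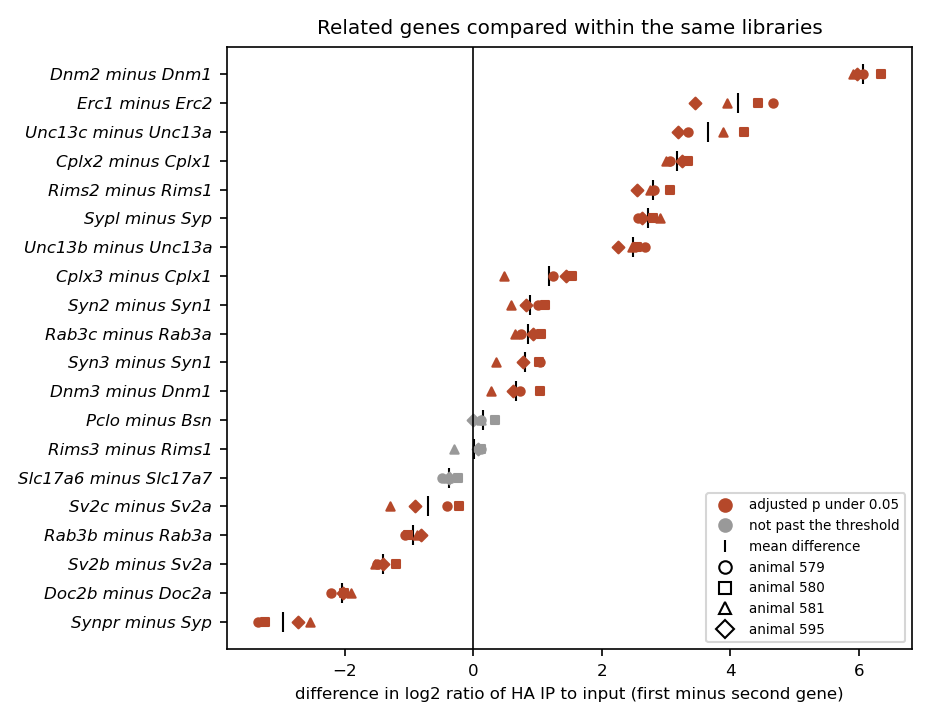
Difference between related genes in the log2 ratio of HA IP to input (x axis) for 20 pairs (y axis), 1 point per animal and a bar at the mean; red pairs passed the exact permutation test after adjustment. Dnm2 minus Dnm1 lies farthest to the right at 6.07 and Synpr minus Syp farthest to the left at -2.96.

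Start regions of the genes were read to show what sequence they share. RefSeq windows (build GRCm38.p6, which is mm10, from 250 bases before to 50 bases after a transcription start) were on hand for 35 of the 39 genes, 46 windows in all. They were searched on both strands for the arms of the RE1 element, which binds REST, a repressor of neuronal genes in non-neuronal cells: TTCAGCACC and GGACAGNGC, which do not overlap each other. The left arm was found in 3 of the 46 windows, those of Syn1, Ppfia3 and Unc13a (6.52%, beside 0.371% of all 32851 windows), and the right arm in 2, those of Sv2b and Unc13a (4.35%, beside 1.91%). The 250 bases before the start of Syn1 (chrX:20920919-20921168, minus strand) and Ppfia3 (chr7:45367020-45367269, minus strand) are printed because they hold the left arm. Those of Dnm2 (chr9:21424658-21424907, plus strand) are printed because that gene alone averaged above its input on the deposited scale. For Unc13a, 26 bases after the start (chr8:71671727-71671752, minus strand) are printed because they hold both arms. Capitals mark the arms, and a stretch without capitals holds neither.
Syn1: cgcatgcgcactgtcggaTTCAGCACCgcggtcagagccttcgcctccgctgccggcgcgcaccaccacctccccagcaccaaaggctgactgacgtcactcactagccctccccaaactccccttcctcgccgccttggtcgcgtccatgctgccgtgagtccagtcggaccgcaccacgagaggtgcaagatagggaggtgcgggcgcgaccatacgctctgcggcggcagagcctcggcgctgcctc
Ppfia3: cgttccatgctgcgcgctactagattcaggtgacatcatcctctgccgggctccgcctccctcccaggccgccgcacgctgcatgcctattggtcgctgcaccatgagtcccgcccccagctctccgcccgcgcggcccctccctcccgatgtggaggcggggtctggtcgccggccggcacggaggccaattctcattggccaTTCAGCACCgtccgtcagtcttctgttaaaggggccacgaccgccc
Dnm2: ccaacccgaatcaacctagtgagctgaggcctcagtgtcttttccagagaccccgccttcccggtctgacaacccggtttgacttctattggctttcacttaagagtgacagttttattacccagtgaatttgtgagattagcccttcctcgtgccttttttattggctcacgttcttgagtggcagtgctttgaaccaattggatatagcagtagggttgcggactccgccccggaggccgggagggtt
Unc13a: GCGCTGTCCgcgcccccGGTGCTGAA
The arms of Unc13a read on the opposite strand, at bases 6 to 14 and 23 to 31 of the transcript. These are exact matches of letters only, so an arm with a changed letter was not counted. The letters ggtcagagc, just after the left arm of Syn1, differ in this way from the right arm. Syn1, Ppfia3 and Unc13a, which hold the left arm, kept 6.45 ± 0.269%, 14.3 ± 1.0% and 7.61 ± 1.87% of input, and all other genes with a window but Sv2b, among them Synpr at the low end and Dnm2 at the high end, hold neither arm in it.

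Other presynaptic genes were read from a list of 91 further genes of SNARE proteins, synaptotagmins, coats and adaptors, of which 90 were tested. Of these, 62 fell and 23 rose, beside 41.2% and 42.1% of all genes tested, while 5 missed the threshold. Their median log2 fold change was -1.77. On the deposited scale 74 were lower and 8 higher, beside 61.6% and 23.3% of all genes tested. Several families had members on both sides. Among SNARE genes, Vamp3, Stx4a, Snap29, Stx2 and Vamp4 rose, by 1.81, 1.09, 0.91, 0.85 and 0.77, whereas Vamp1, Vamp2, Stx3, Snap25 and Snap47 had log2 fold changes of -3.03, -1.23, -0.48, -4.17 and -0.59 and fell. Syt11, a synaptotagmin that does not bind calcium, rose by 1.58 (SE 0.11), with 316, 263, 355 and 267 FPKM in HA IP, against 184, 177, 172 and 181 FPKM in input. The synaptogyrin gene Syngr2 rose by 1.73 (SE 0.09), and Syngr1 and Syngr3, with -2.24 and -3.49, fell. Of the liprin genes, Ppfibp2 and Ppfia1 rose by 1.86 and 1.21, and Ppfia2, Ppfia4 and Ppfibp1, with -3.36, -2.58 and -1.99, fell. Rab3il1, Apba2, Lin7c and Cask rose by 1.57, 1.13, 1.11 and 0.64, Rab3gap1 by 0.43 and Scamp1 by 0.34. Of related genes on the list, Rab3ip, Apba1, Lin7a and Lin7b had -0.26, -2.11, -3.29 and -2.37 and fell. Rab3gap2 and Scamp5, with -0.28 and -1.06, fell too. The clathrin genes Clta, Cltb and Cltc rose by 0.85, 0.70 and 0.23. Of the AP2 adaptor genes, Ap2s1 and Ap2a1 rose by 0.47 and 0.22, Ap2m1 had 0.05 and did not pass, and Ap2b1 and Ap2a2, with -0.36 and -0.53, fell. Itsn1, Pacsin2 and Picalm rose by 1.11, 0.54 and 0.31, whereas their relatives Itsn2, Pacsin1 and Snap91 had -1.0, -2.67 and -3.67 and fell. The 8 that were higher on the deposited scale too were Ppfibp2, Vamp3, Syngr2, Syt11, Rab3il1, Ppfia1, Apba2 and Stx4a. Of the other risers, Pacsin2, Ap2s1, Rab3gap1, Scamp1, Picalm, Cltc and Ap2a1 were called lower on that scale, with log2 fold changes of -0.62 for Ap2a1 to -0.28 for Pacsin2, and Itsn1, Lin7c, Snap29, Stx2, Clta, Vamp4, Cltb and Cask did not pass there. The lowest of the list were Rims4 at -4.59 (SE 0.15), the RIM-binding protein gene Rimbp2 at -4.29 (SE 0.31) and Syt2, a fast calcium sensor gene, at -4.26 (SE 0.13).

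Across animals, the libraries of a group did not take its ends equally often. Of the 4 HA IP libraries, those of animals 579, 580, 581 and 595 were the highest for 8, 1, 14 and 16 of the 39 genes, beside 17%, 18%, 33.7% and 31.3% of all genes tested. They were the lowest for 4, 18, 12 and 5, beside 18.2%, 29.6%, 25.1% and 27.1%. The HA IP library of 580 was thus often the lowest and hardly ever the highest. Among inputs, that of animal 581 was the highest for 17 and the lowest for 13, beside 29.4% and 33.7% of all genes tested, and the other inputs were the highest for 6 to 8 genes. The input of 581 was the highest for Sv2c, Sv2b, Syn1, Syn2, Syn3, Amph, Doc2a and Slc17a7, for example. Leaving out the HA IP library of 580 or the input library of 581 kept 4 genes higher, and 34 lower without the HA IP library of 580 and 34 without the input library of 581, the gene lost being Unc13b.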

How the data were processed

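Messenger RNA of mouse cortex was sequenced in 4 HA IP and 4 input libraries, paired-end and stranded per the labels' protocols. Tools named in the submitters' processing notes are bcl2fastq 2.17, HTSeq and STAR, with build mm10; annotation, strand setting and other versions: not given in the sources used here. The deposited values were read as FPKM made by the authors, since neither headers nor labels name the unit: with 1 whole length per gene and 1 total per library, each of the 142235 nonzero values lay within 0.001 of whole fragments, lengths having been chosen to meet that tolerance. These lengths may not be those of single transcripts, so FPKM levels were not compared between genes; sums over a list were compared only between groups. Intervals of counting error are not given, since the spread over animals was used.

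FPKM were divided by TMM factors (unweighted, trims 0.3 and 0.05, own code), and log2(FPKM + 0.1) was tested with limma 3.58.1 in R 4.3.3 with an intensity trend, HA IP against input; on this scale the changes of low genes are understated. Genes with at least 0.246 CPM (recovered fragments, 10 in a library of median size) in 4 libraries and 15 fragments in all were tested, 15605 genes. P-values are two-sided, Benjamini-Hochberg adjusted over them, with a threshold of 0.05. The recovery was run on simulated data with the library totals given, so finding the totals was not tested. The fit was run on simulated data in which few genes changed, evenly up and down. How the scaling acts where many genes change, as here, was not tested. Genes given per library were the 10 with the largest and 5 with the smallest share of input, those called higher, those whose call changed with the scale, and 11 set examples; Dnm1 and the relatives of other presynaptic genes that rose were added after their values were seen. P-values of the main fit measure the spread among the 4 libraries of each group, with variances moderated across genes. They leave out the pairing by animal. The genes, lists, pairs and tests were chosen with earlier results of these data known. Same-number libraries deviated together (correlations 0.22 to 0.40, at most 0.11 for other pairs), the numbers marking 1 animal each. Alternatives were pseudocounts, scalings, filters, no trend, an animal block, and leaving out each animal or library.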

Additional observations from a re-analysis of the deposited data

Results flagged for a closer look

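Single libraries stood far from the other 3 of their group in 9 of 78 gene and group combinations, by a gap of 0.83 to 0.94 of the whole range, where chance gives a gap past the limit used in about 1 of 20 combinations. In animal 581 these were Syn1 at 124 FPKM in the input, the highest of the 4, with the others at 111 to 112 FPKM; Sv2c at 8.92 FPKM in the input, the highest of the 4, with the others at 4.17 to 4.43 FPKM; Amph at 48.8 FPKM in the input, the highest of the 4, with the others at 28.6 to 31.9 FPKM; Doc2a at 4.79 FPKM in the HA IP, the highest of the 4, with the others at 3.61 to 3.74 FPKM; Doc2a at 28.7 FPKM in the input, the highest of the 4, with the others at 17.9 to 18.9 FPKM. In animal 580 they were Unc13b at 1.70 FPKM in the HA IP, the lowest of the 4, with the others at 2.37 to 2.47 FPKM and Synj1 at 2.92 FPKM in the HA IP, the lowest of the 4, with the others at 3.27 to 3.34 FPKM. In animal 595 they were Cplx2 at 128 FPKM in the HA IP, the highest of the 4, with the others at 115 to 117 FPKM and Cplx2 at 397 FPKM in the input, the highest of the 4, with the others at 344 to 352 FPKM.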

How the results depend on the processing

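Among the fold changes of the 39 genes recomputed under the alternatives, 773 kept their direction and call, 4 lost the call (all Unc13b) and 3 turned, all on the deposited scale: Sypl to -0.0706, Unc13c to -0.0501 and Erc1 to -0.25. There 1 of the 39 genes, 8 other presynaptic genes and 3643 of all genes were higher (against 6566 of all genes after TMM scaling), and the medians were -3.72 and -2.52, since every log2 ratio shifts. With a pseudocount of 1 FPKM the medians were -2.34 and -1.0, and with 0.01 FPKM the median of the other presynaptic genes was -1.95. The median share of input was 12.9% after TMM and 12.2% after median-of-ratios scaling. Leaving out animals or libraries gave 34 to 35 genes lower and 4 higher in each case, medians of -3.01 to -2.83, shares of 6.76 to 7.27%, other presynaptic genes 21 to 23 higher and 60 to 62 lower with medians of -1.80 to -1.66, and 6208 to 6670 genes higher and 5191 to 6493 lower over all genes. With the animal as replicate block 4 genes were higher and 35 lower, and no call among the 39 changed.

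Of the pairs, 14 to 17 passed when 1 library was left out; without a whole animal 3 against 3 libraries cannot pass (smallest exact p 0.1), and no paired form was run, since 4 animals allow no exact p under 0.125. Cplx3 minus Cplx1 did not pass with 0.01 FPKM, nor Rab3b minus Rab3a with 1 FPKM. Slc17a6 minus Slc17a7 passed with 0.01 FPKM, at -0.83 (exact permutation test, adjusted p = 0.0336). With a pseudocount of 1 FPKM, Sv2c minus Sv2a was 0.81, Slc17a6 minus Slc17a7 1.30 and Rims3 minus Rims1 -0.53, all of the other sign. Each of these passed there (exact permutation test, adjusted p = 0.0301), as did Pclo minus Bsn at 0.72 (0.0301). Rims3 minus Rims1, near 0, also turned to -0.0280 on the deposited scale and ran from -0.0572 to 0.110 when animals or libraries were left out. Depth limits the lowest values: Sv2c, Cplx3 and Slc17a6 had as few as 14, 23 and 25 fragments in an HA IP library.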

Other observations

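Other letters were searched in the same 46 promoter windows, on both strands. The letters GCGCATGCG, a core of the NRF1 motif, were found in 2 of them (4.35%), those of Bsn and Syn1, beside 1.75% of all 32851 windows. The GC box GGGCGG was in 29 (63.0%, beside 35.7%) and TATAAA in 3 (6.52%, beside 13.6%). The palindrome TGACGTCA, to which CREB binds, was in that of Syn1 alone (2.2%, beside 1.79%). Over the 39 genes, the share of input kept had a Spearman correlation of 0.35 with the length behind the FPKM, as a description.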
